A study of Mus musculus with 19 samples.

Results

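The mitochondrial chaperones and proteases described here are 7 genes, Hspd1, Hspe1, Hspa9, Grpel1, Trap1, Lonp1 and Clpp, out of 49592 genes counted in the mouse striatum. They were chosen by name, through the gene names that the deposited comparison tables pair with gene identifiers, and all 7 were found and passed the filter on low counts that left 21513 genes for testing. The mice were males aged 4 months that all carried D2RCre (also written D2Cre in the labels) and a floxed Cas9-EGFP, so that Cas9 is switched on in cells that express the D2 dopamine receptor. Adeno-associated virus of serotype AAV5 had been placed in the medial prefrontal cortex. Starting 3 weeks after that surgery all mice received saline for 5 days, and on day 9 a challenge dose. There were 4 groups. Amphetamine KO mice (n = 4) had received the D2R-sgRNA virus and a challenge of amphetamine at 3 mg/kg. The submitters' sample descriptions of this group skip number 7, and their KO comparison is named as made without it. Saline KO mice (n = 5) had received the same virus and a saline challenge. Amphetamine control mice (n = 5) had received the syn-mCherry virus, which is named without a guide RNA, and amphetamine at 3 mg/kg. Saline control mice (n = 5) had received the syn-mCherry virus and a saline challenge. Tissue was taken 90 min after amphetamine, and the labels do not give the time separately for saline. The D2 receptor was targeted in the prefrontal cortex, while the RNA came from the striatum, so no striatal transcript checks the knockout. In bulk tissue, fewer cells of a type and less RNA per cell cannot be told apart.

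Mitochondria import most of their proteins from the cytosol as unfolded chains, which have to be pulled in, folded and, when damaged, degraded. Hspa9 encodes the mitochondrial member of the heat shock protein 70 family (mortalin), the motor that pulls chains through the inner membrane, and Grpel1 encodes the nucleotide exchange factor that resets it. Hspd1 and Hspe1 encode the barrel and the lid of the chaperonin in which imported chains fold. Trap1 encodes the mitochondrial member of the heat shock protein 90 family. Lonp1 and Clpp encode proteases of the matrix: Lonp1 is a complete ATP-dependent protease, while Clpp is the proteolytic chamber that works with the unfoldase Clpx. Transcripts of several of these genes are known to be induced when unfolded proteins build up in mitochondria.

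Hspd1 and Hspe1 are neighbours that are transcribed away from each other. In the deposited tables, which use GRCm39, Hspd1 (ENSMUSG00000025980.15) lies on chromosome 1 from 55116994 to 55127402 and Hspe1 (ENSMUSG00000073676.5) on chromosome 1 from 55127291 to 55130466, so the annotated genes overlap by 112 bases. Whether the counting used strand is not stated, so reads within the overlap cannot be assigned with certainty. Lonp1 (ENSMUSG00000041168.11, 56921297 to 56933887) and Clpp (ENSMUSG00000002660.9, 57297305 to 57303188) both lie on chromosome 17, 363417 bases apart. Trap1 (ENSMUSG00000005981.12) lies on chromosome 16 from 3857835 to 3895691, and Grpel1 (ENSMUSG00000029198.4) on chromosome 5 from 36622342 to 36631424. All 7 genes are annotated as protein coding.

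Promoter windows were taken from RefSeq on GRCm38.p6, which is an older build than that of the counts, and ran from 250 bases before to 50 bases after each start site. Of the 7 genes, 6 had an entry. The Hspe1 window is shown because a window of Hspd1 overlaps most of it, and the Lonp1 window because it stands for a protease gene without the motif. Heat shock elements, the sites bound by heat shock factors, are built from inverted repeats of GAA, and the windows were searched on both strands for a 3-unit motif (GAA, TTC and GAA in a row, with any 2 bases between neighbours) and for the pairs GAANNTTC and TTCNNGAA, which overlap it. The palindrome TGACGTCA, the cyclic AMP response element, was searched as well. Capitals mark matches to the pairs or to TGACGTCA.
Hspe1, chr1:55087898-55088197, plus strand: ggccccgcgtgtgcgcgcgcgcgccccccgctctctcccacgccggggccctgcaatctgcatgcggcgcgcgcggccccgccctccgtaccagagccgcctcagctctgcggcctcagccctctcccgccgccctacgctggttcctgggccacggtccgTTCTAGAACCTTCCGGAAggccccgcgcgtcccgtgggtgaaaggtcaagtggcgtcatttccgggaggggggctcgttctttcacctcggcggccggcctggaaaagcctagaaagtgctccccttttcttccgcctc
Lonp1, chr17:56626854-56627153, minus strand: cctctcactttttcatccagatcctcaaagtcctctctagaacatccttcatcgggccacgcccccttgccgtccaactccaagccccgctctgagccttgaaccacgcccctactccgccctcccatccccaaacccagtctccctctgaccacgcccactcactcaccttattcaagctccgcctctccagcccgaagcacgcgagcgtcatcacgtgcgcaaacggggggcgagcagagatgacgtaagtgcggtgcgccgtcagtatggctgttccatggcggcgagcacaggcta
The capitals in the Hspe1 window are an unbroken run of 18 bases, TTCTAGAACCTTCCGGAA, at chr1:55088059-55088076, made of 4 alternating GAA and TTC units. It holds 2 overlapping matches of the 3-unit motif, whose first bases lie 89 and 84 bases before the Hspe1 start site. One of the RefSeq start sites of Hspd1 has a window on the minus strand (chr1:55087883-55088182) that shares 285 bases with the Hspe1 window, and from that site the same matches lie 144 and 139 bases upstream. The window of the other Hspd1 start site (chr1:55088194-55088493) shares 4 bases with the Hspe1 window. It holds no match of the 3-unit motif, the pairs or TGACGTCA. Of all 32817 promoter windows, 198 (0.603%) held the 3-unit motif. Among the 6 genes with an entry it was found for Hspe1 and, at the first of these start sites, for Hspd1. The Clpp window had a single TTCNNGAA, a pair found in 8.51% of all windows, located 33 bases after the start site. The Trap1 window had a TGACGTCA, found in 1.79% of all windows, located 47 bases before the start site. In the Lonp1 and Grpel1 windows none of these motifs was found. A match describes the letters in a window and does not show that a factor binds there.

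All 7 transcripts were abundant. Library totals ran from 57003408 to 85536346 counts, and the lowest count of any of the 7 genes in a library was 2124, for Clpp, so counting error was small beside the spread between mice. Per unit of length, in the authors' FPKM (fragments scaled by gene length and library size), Hspd1 averaged 85.4 and Hspa9 84.7 FPKM over the 19 libraries, followed by Hspe1 with 65.0, Clpp with 45.0, Trap1 with 27.7, Lonp1 with 18.3 and Grpel1 with 12 FPKM. The ranges of Hspd1 (72.9 to 101 FPKM) and Hspa9 (75.7 to 104 FPKM) overlapped almost completely, whereas the range of Trap1 (23.8 to 30.4 FPKM) lay above that of Lonp1 (15.7 to 19.6 FPKM). Near-identical copies of Hspd1 took few reads: 2 pseudogenes together had between 0.356% and 0.535% of the Hspd1 count.

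The genes differed in how much they varied between mice of 1 group. The coefficient of variation of CPM (counts scaled to library size, with TMM factors) within groups was 14.8% for Hspe1 and 13% for Clpp, against 9.81% for Grpel1, 7.75% for Hspa9, 6.30% for Hspd1, 5.67% for Trap1 and 5.31% for Lonp1. Saline KO library 3 carried much of the spread of Hspe1, Clpp and Grpel1. It had 104 CPM of Hspe1, 68.2 CPM of Clpp and 57.1 CPM of Grpel1, where the other 4 saline KO libraries had 63.4 to 72.9, 43.7 to 47.5 and 40.7 to 42.3 CPM. The same library lay farthest from the origin on the first 4 principal components of all genes, and it had the highest summed CPM of 4 of the 5 lists of related genes (described further on) and of the blood, ependymal and oligodendrocyte markers. Saline control library 5, amphetamine KO libraries 2 and 3 and amphetamine control library 3 also lay far out. Markers of striatal projection neurons were detected in every library, with a summed CPM between 1336 and 5208.

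**Figure D1:**
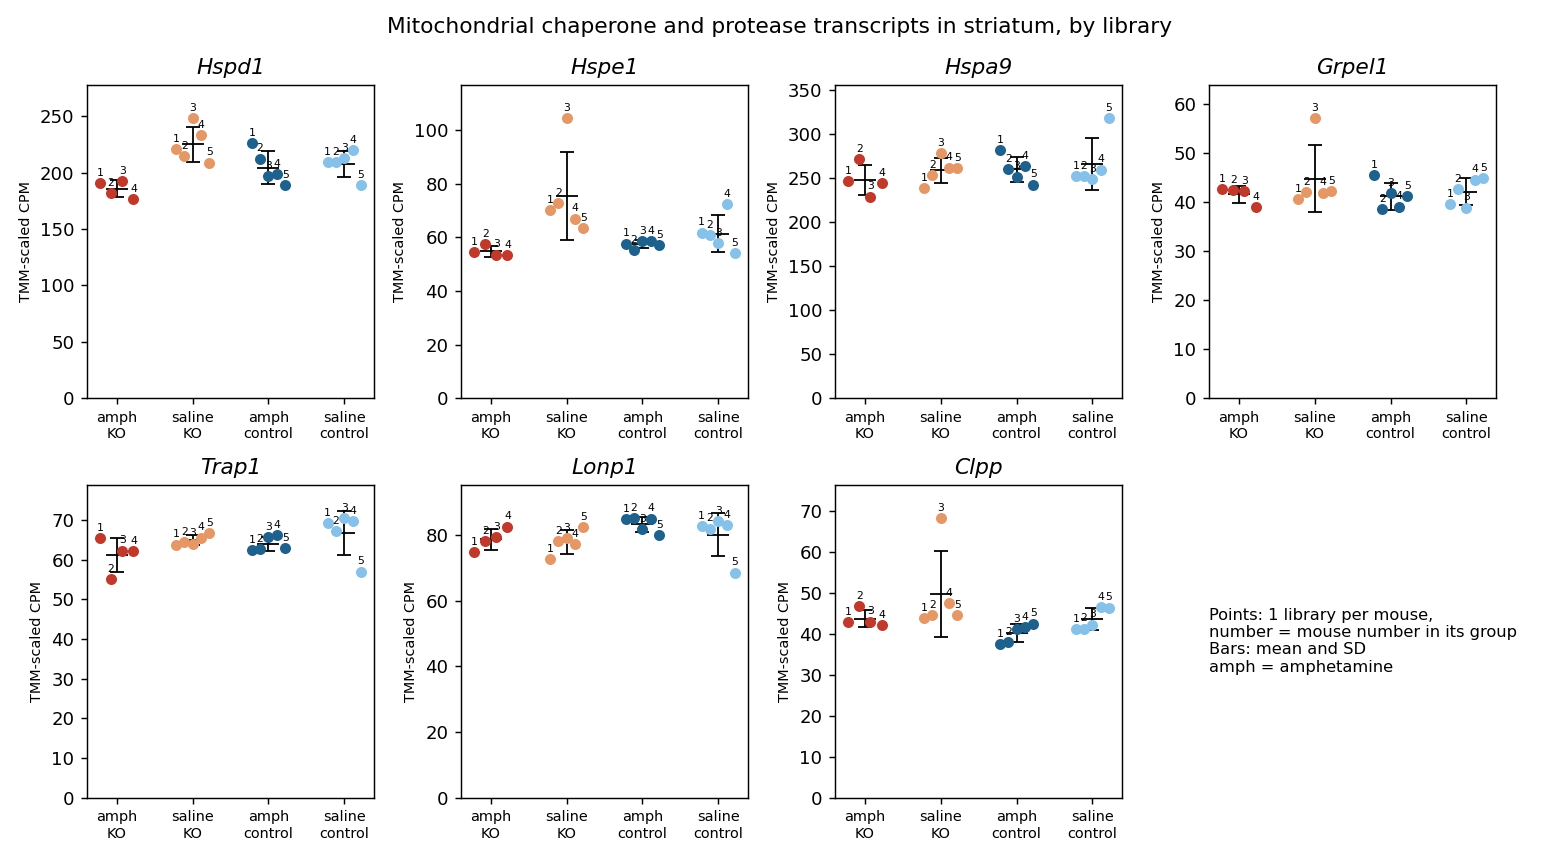
TMM-scaled CPM of each of the 7 genes (vertical axes, starting at 0) in the 19 libraries, 1 point per mouse with its number, grouped from left to right as amphetamine KO, saline KO, amphetamine control and saline control; bars give the mean and SD. Hspd1 and Hspe1 of amphetamine KO mice lie below every saline KO value, and saline KO library 3 stands alone for Hspe1, Clpp and Grpel1.

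The first comparison asks what an acute dose of amphetamine does in the striatum of KO mice. The chaperonin pair differed most of the 7 genes. Hspd1 stood at 191, 182, 193 and 177 CPM in amphetamine KO mice, against 221, 215, 248, 233 and 209 CPM in saline KO mice. Every amphetamine KO value lay below every saline KO value. Hspe1 stood at 54.5, 57.6, 53.6 and 53.4 CPM in amphetamine KO mice, against 70.1, 72.9, 104, 67.0 and 63.4 CPM in saline KO mice. Here too the groups did not overlap. By edgeR, the quasi-likelihood test used throughout, the log2 fold change of Hspd1 was -0.28 ± 0.0713 (SE), a level 17.6% lower in amphetamine KO mice, with an adjusted p of 0.243 over all 21513 genes. For Hspe1 it was -0.46 ± 0.112, a level 27.5% lower, with an adjusted p of 0.205 by edgeR. Neither passed the threshold of 0.05 on the adjusted p, and none of the 7 genes was called, on a background of 0.00465% of all genes called in either direction.

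At an unadjusted p under 0.05 by edgeR, 2 of the 7 genes were lower in amphetamine KO mice, where 6% of all genes were. The same 2 were the genes whose groups did not overlap, on a background of 2.84% of all genes with all amphetamine KO values lower. The call differed between fits, also between 2 fits by DESeq2. DESeq2 on the same counts of all 19 libraries gave log2 fold changes of -0.27 for Hspd1 and -0.46 for Hspe1. Its adjusted p were 0.0265 and 0.0301, so that it called both lower, on a background of 0.237% of all genes called lower. The authors' deposited table, also from DESeq2, holds the KO groups only. It lists -0.27 ± 0.0783 (SE) for Hspd1 with an adjusted p of 0.0651 and -0.46 ± 0.148 for Hspe1 with 0.132. Without saline KO library 3, the edgeR log2 fold changes were -0.24 for Hspd1 and -0.32 for Hspe1, with adjusted p of 0.312 and 0.197.

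The other 5 genes gave smaller values in KO mice. Hspa9 (ENSMUSG00000024359.11, chromosome 18 from 35070467 to 35087410), the import motor, stood at 247, 271, 229 and 244 CPM in amphetamine KO mice, against 238, 253, 278, 262 and 261 CPM in saline KO mice, a log2 fold change of -0.06 ± 0.0798. Its nucleotide exchange factor Grpel1 averaged 41.6 ± 1.77 CPM (SD, n = 4) in amphetamine KO mice and 44.8 ± 6.89 CPM (n = 5) in saline KO mice. The log2 fold change of Grpel1 was -0.11 ± 0.0893, and it was 0.00 to 2 decimals without saline KO library 3. Trap1 averaged 61.3 ± 4.31 CPM in amphetamine KO mice and 64.9 ± 1.24 CPM in saline KO mice, with a log2 fold change of -0.08 ± 0.0668. Of the proteases, Lonp1 averaged 78.7 ± 3.19 CPM in amphetamine KO mice and 77.9 ± 3.56 CPM in saline KO mice, a log2 fold change of 0.02 ± 0.0648. Clpp stood at 42.9, 46.7, 42.9 and 42.1 CPM in amphetamine KO mice, against 43.7, 44.5, 68.2, 47.5 and 44.5 CPM in saline KO mice. Its log2 fold change of -0.19 ± 0.104 was -0.04 without saline KO library 3. For all 5 genes the groups overlapped, and their adjusted p by edgeR ran from 0.472 to 0.938. In all, 6 of the 7 genes had a log2 fold change below 0, as 51.1% of all genes did, and the median over the 7 was -0.11, beside -0.01 over all genes.

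The same question in control mice gave values close to 0. Hspd1 stood at 226, 212, 197, 199 and 189 CPM in amphetamine control mice, against 209.7, 209, 213, 219.9 and 189 CPM in saline control mice. Hspe1 stood at 57.7, 55.1, 58.5, 58.7 and 57.1 CPM in amphetamine control mice, against 61.8, 60.9, 57.9, 72.4 and 54.3 CPM in saline control mice. Both genes had overlapping groups. The log2 fold changes were -0.02 ± 0.0670 for Hspd1 and -0.10 ± 0.105 for Hspe1. Those of the other genes were -0.03 ± 0.0752 for Hspa9, -0.03 ± 0.0842 for Grpel1, -0.06 ± 0.0629 for Trap1, 0.06 ± 0.0612 for Lonp1 and -0.12 ± 0.0981 for Clpp. None of the 7 was called by edgeR, on a background of 0.00465% of all genes, and none had an unadjusted p under 0.05, where 11.8% of all genes did; DESeq2 and limma voom called none either. Adjusted p by edgeR ran from 0.691 to 0.929, and for none of the 7 were the groups apart, on a background of 3.9%. As in KO mice, 6 of the 7 genes were below 0, where 51.6% of all genes were, with a median of -0.03. Hspa9 was above 0 when saline control library 5 was left out, with 0.03.

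Whether the amphetamine difference itself differed between genotypes was tested as an interaction, the log2 fold change in KO mice minus that in control mice. It was -0.25 ± 0.0977 for Hspd1 (adjusted p = 0.519 by edgeR) and -0.37 ± 0.152 for Hspe1 (adjusted p = 0.519 by edgeR). None of the 7 genes was called, nor was any of the 21513 genes tested (0%). At an unadjusted p under 0.05 by edgeR, 2 of the 7 genes, Hspd1 and Hspe1, lay below 0, where 4.05% of all genes did. All 7 values were below 0, as were 49.1% of those of all genes, with a median of -0.07. DESeq2 called 15 genes for the interaction and none of the 7. Without saline KO library 3 the interaction was -0.21 for both Hspd1 and Hspe1. The other 5 genes had values between -0.08 and -0.02, and each of these 5 turned above 0 when 1 library was left out, saline KO library 3 in the case of Hspa9, Grpel1 and Clpp. Tissue markers shifted with the interaction too. All 10 striatal projection neuron markers were below 0, with a median of -0.79. Of these, 5 had an unadjusted p under 0.05 by edgeR. Of the choroid plexus markers 6 of 7 were above 0, with a median of 0.81. Their sum was 684 CPM in amphetamine KO library 2, and the next highest library had 71.8 CPM. Above 0 were also 8 of 9 hypothalamic neuron markers (median 0.97) and 9 of 10 ependymal markers (0.33). So were 6 of 7 astrocyte (0.10) and all 5 blood markers (0.35). Below 0 were all 6 microglia (-0.29) and 6 of 7 oligodendrocyte markers (-0.13). Of the cortical projection neuron markers, 5 of 10 were above 0. None of these markers was called, and their part in the Hspd1 and Hspe1 values was not tested.

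**Figure D2:**
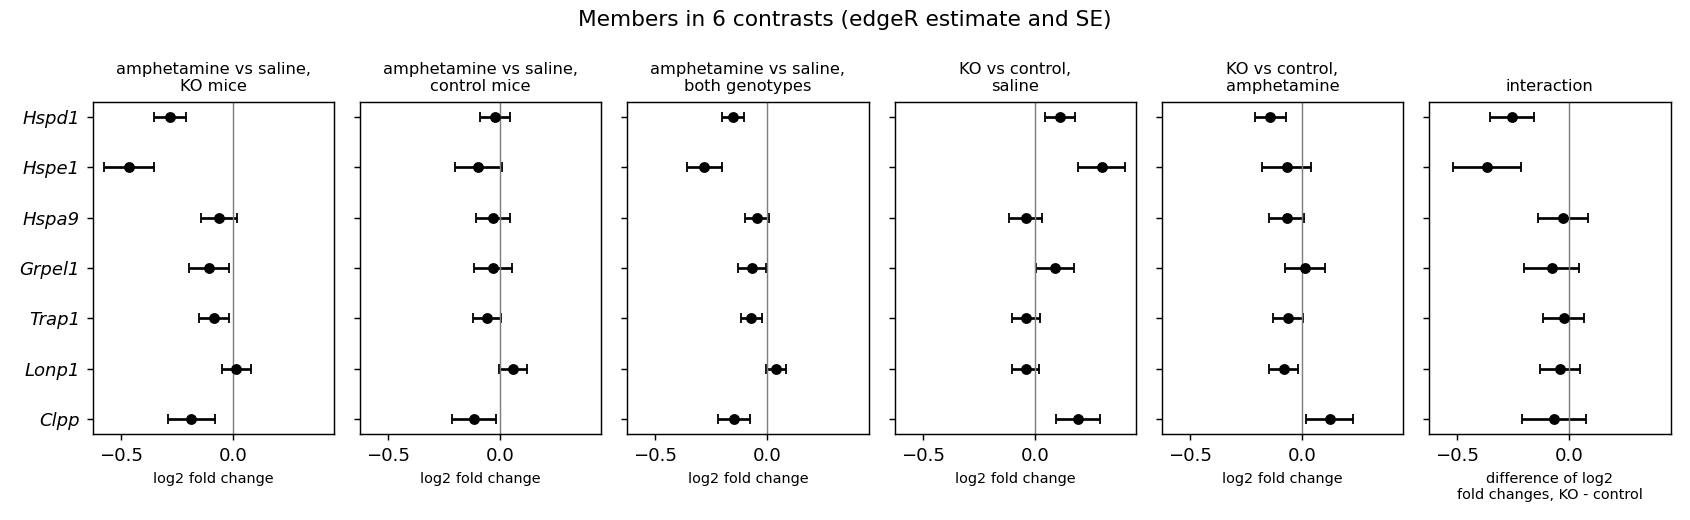
Log2 fold change (horizontal axes) of the 7 genes in the 6 contrasts, as the edgeR estimate with its SE; in the last panel the axis is the difference of the amphetamine log2 fold changes, KO minus control. Hspd1 and Hspe1 lie at -0.28 and -0.46 for amphetamine in KO mice and near 0 for amphetamine in control mice.

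Averaged over both genotypes, amphetamine gave a log2 fold change of -0.15 ± 0.0489 for Hspd1 (adjusted p = 0.169 by edgeR) and of -0.28 ± 0.0763 for Hspe1 (adjusted p = 0.119 by edgeR). Clpp had -0.15 ± 0.0715, with an adjusted p of 0.339 by edgeR, and -0.08 without saline KO library 3. Of the 7 genes, 6 were below 0, where 52.5% of all genes were, with a median of -0.07. None was called, on a background of 0.149%, which is 32 genes, 11 higher and 21 lower. At an unadjusted p under 0.05 by edgeR, 3 of the 7 genes were lower after amphetamine, where 7.78% of all genes were. Hspe1 was called lower by DESeq2 with an adjusted p of 0.0391, on a background of 1.15% of all genes called lower. Without 4 libraries that stand apart (amphetamine KO 2 and 3, saline KO 3 and saline control 5), edgeR gave Hspe1 a log2 fold change of -0.24 and an adjusted p of 0.0181, on a background of 1.67% called lower. These 4 were taken from earlier results of these data, and amphetamine control library 3, which was kept, lay farther out on the principal components (57.1) than amphetamine KO library 2 (44.1). Leaving out 1 library at a time gave adjusted p by edgeR from 0.0571 to 0.245 for Hspe1. The values in KO mice, in control mice and in both share their libraries and are not independent.

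The genotypes were then compared under each treatment. After saline, Hspe1 averaged 75.6 ± 16.5 CPM (SD, n = 5) in saline KO mice and 61.5 ± 6.80 CPM (n = 5) in saline control mice, a log2 fold change of 0.30 ± 0.104 (adjusted p = 0.614 by edgeR). The groups overlapped, since saline control library 4 had 72.4 CPM and 4 saline KO libraries lay between 63.4 and 72.9 CPM. Without saline KO library 3, the saline KO mean was 68.3 ± 4.10 CPM and the log2 fold change 0.15, with an adjusted p of 0.986 by edgeR. Hspd1 averaged 225 ± 15.7 CPM in saline KO mice and 208 ± 11.6 CPM in saline control mice, a log2 fold change of 0.11 ± 0.0670. Clpp had 0.19 ± 0.0979, or 0.05 without saline KO library 3, and Grpel1 had 0.09 ± 0.0841, or -0.02 without that library. Hspa9, Trap1 and Lonp1 were each at -0.04. None of the 7 genes was called by edgeR, by DESeq2 or by limma voom, as was none of all genes by edgeR (0%), and 1 of the 7, Hspe1, had a higher level at an unadjusted p under 0.05, where 3.79% of all genes did. For none of the 7 were the groups apart, on a background of 0.911%, and 4 of the 7 were above 0, where 51% of all genes were. The saline KO mice are also the mice that amphetamine KO mice were set against, so a high saline KO library enters both results.

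After amphetamine, Hspd1 averaged 186 ± 7.59 CPM (SD, n = 4) in amphetamine KO mice and 205 ± 14.7 CPM (n = 5) in amphetamine control mice, a log2 fold change of -0.14 ± 0.0712 (adjusted p = 0.425 by edgeR). The groups overlapped, with amphetamine KO values up to 193 CPM and an amphetamine control value of 189 CPM. Hspe1 averaged 54.8 ± 1.93 CPM in amphetamine KO mice and 57.4 ± 1.43 CPM in amphetamine control mice, a log2 fold change of -0.07 ± 0.111. Clpp and Grpel1 were above 0, with 0.12 ± 0.104 and 0.01 ± 0.0892, and Grpel1 was at -0.02 without the 4 libraries that stand apart. The other 3 genes were below 0, from -0.08 to -0.06. None of the 7 was called by edgeR, DESeq2 or limma voom, as was none of all genes by edgeR (0%), and none had an unadjusted p under 0.05, where 12.8% of all genes did. For none of the 7 were the groups apart, on a background of 6.79%, and 5 of the 7 were below 0, where 49% of all genes were. In the same comparison all 10 striatal projection neuron markers were below 0, with a median of -0.81 and 9 of them at an unadjusted p under 0.05. The 7 choroid plexus markers were all above 0, with a median of 1.08. Their sum was 684 CPM in amphetamine KO library 2, against 46.7, 30.9 and 43.3 CPM in amphetamine KO libraries 1, 3 and 4. In amphetamine control mice this sum ran from 31.9 to 71.8 CPM. Also above 0 were 8 of 9 hypothalamic neuron markers, with a median of 1.43, and all 10 ependymal markers, with a median of 0.55. None of these markers was called by edgeR, and their part in the Hspd1 value was not tested.

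Placed in order of their group means, Hspd1 was highest in saline KO mice, followed by saline control, amphetamine control and amphetamine KO mice. The saline control and amphetamine control means, 208 and 205 CPM, differed by less than the SD of either group. Hspe1 followed the same order, and the means of amphetamine control and amphetamine KO mice, 57.4 and 54.8 CPM, lay close together, with overlapping values. For Hspa9 the 4 means, 248, 258, 259.7 and 266 CPM in amphetamine KO, saline KO, amphetamine control and saline control mice, followed each other with overlapping values. The SD was 17.5, 14.7, 14.5 and 29.1 CPM in the same order, the last with saline control library 5 at 317 CPM and the next at 259 CPM.

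The summed CPM of marker lists of neighbouring tissue differed between groups. The 9 hypothalamic neuron markers summed to between 13.4 and 73.6 CPM in amphetamine KO mice, against 76.6 to 164 CPM in saline KO mice. The sums of these groups did not overlap, as with Hspd1 and Hspe1. Taken singly, 6 of the 9 markers had a log2 fold change below 0 and 3 above 0. For 3 of the 9 all amphetamine KO values were lower, as for 2.84% of all genes. In amphetamine control mice the sum ran from 9.66 to 27.1 CPM and in saline control mice from 14.4 to 199 CPM, with 2 markers at 0 in a library in the amphetamine control group and 1 in the saline control group. Cortical projection neuron markers summed to 210 to 1117 CPM in amphetamine KO mice, against 249 to 606 CPM in saline KO mice, and striatal projection neuron markers to 1336 to 3927 CPM in amphetamine KO mice, against 2165 to 4600 CPM in saline KO mice. Both of these lists overlapped between the KO groups, as did the other 6 lists. Ependymal markers summed to 34.5 to 54.7 CPM in amphetamine KO mice, against 33.5 to 65.4 CPM in saline KO mice, and choroid plexus markers to 30.9 to 684 CPM in amphetamine KO mice, against 46.8 to 60.9 CPM in saline KO mice. Blood markers summed to 58.6 to 187 CPM in amphetamine KO mice, against 66.0 to 421 CPM in saline KO mice, and microglia markers to 203 to 249 CPM in amphetamine KO mice, against 214 to 247 CPM in saline KO mice. Astrocyte markers summed to 3069 to 3888 CPM in amphetamine KO mice, against 2589 to 3631 CPM in saline KO mice, and oligodendrocyte markers to 3957 to 6621 CPM in amphetamine KO mice, against 5137 to 7100 CPM in saline KO mice. None of the markers was at 0 in a KO library. In control mice, striatal projection neuron markers summed to 4052 to 5208 CPM after amphetamine, against 2694 to 3879 CPM after saline, and ependymal markers to 18.9 to 36.8 CPM after amphetamine, against 41.3 to 56.3 CPM after saline. For these 2 lists the control groups did not overlap, while for the other 7 they did. Between genotypes, the striatal sums did not overlap after amphetamine (1336 to 3927 CPM in amphetamine KO mice, against 4052 to 5208 CPM in amphetamine control mice), and the other sums overlapped after either challenge. The part of these differences in the values of the 7 genes was not tested.

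The other genes of mitochondrial protein handling were followed in 5 lists, none of which contains the 7 genes. Mitochondrial protein import genes encode the translocases of the outer and inner membrane and their helpers. In amphetamine KO against saline KO mice, 28 of 30 had a log2 fold change below 0, with a median of -0.14, whereas 51.1% of all genes were below 0. In control mice 6 of 30 were below 0, where 51.6% of all genes were, with a median of 0.04. In saline KO against saline control mice, which shares its saline KO libraries with the first comparison, 26 of 30 were above 0, where 51% of all genes were, with a median of 0.15. None of the 30 passed the test by edgeR in any of the 6 contrasts; at an unadjusted p under 0.05, 5 were lower in amphetamine KO against saline KO mice, where 6% of all genes were. Over both genotypes DESeq2 called 1 of the 30 lower, where it called 1.15% of all genes lower. The gene with the smallest p for amphetamine in both genotypes was Timm50, the receptor of the inner membrane translocase, which averaged 22.2 ± 0.704 CPM (SD, n = 4) in amphetamine KO, 27.0 ± 3.97 CPM (n = 5) in saline KO, 21.2 ± 0.764 CPM (n = 5) in amphetamine control and 23.9 ± 1.79 CPM (n = 5) in saline control mice. Its log2 fold change over both genotypes was -0.23, with an adjusted p of 0.116 by edgeR. Tomm20, the outer membrane receptor for presequences, had 0.15, and Samm50, which inserts barrel proteins into the outer membrane, had -0.08, with adjusted p of 0.318 and 0.461 by edgeR. Without the 4 libraries that stand apart, edgeR called Timm50 (log2 fold change -0.22, adjusted p = 0.0185) and Tomm20 (0.19, adjusted p = 0.0440), and without saline control library 5 it called Timm50 (adjusted p = 0.0488). Of all genes, 1.67% were called lower and 1.73% higher without the 4 libraries. Without saline control library 5, edgeR called 269 genes, 153 of them lower. Saline KO library 3 had the highest sum of the import list of all 19 libraries, 2534 CPM, and the part of this library in the counts above was not tested.

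Among 24 other proteases, peptidases and chaperones of mitochondria, 17 were below 0 in amphetamine KO against saline KO mice and 7 in amphetamine control against saline control mice, with medians of -0.04 and 0.05, where 51.1% and 51.6% of all genes were below 0. None passed the test by edgeR in any contrast; at an unadjusted p under 0.05, 1 was higher and 3 were lower in amphetamine KO against saline KO mice, where 6% of all genes were lower. Over both genotypes DESeq2 called 1 of the 24, Phb, lower, where it called 1.15% of all genes lower. Phb, a prohibitin that scaffolds inner membrane proteases, averaged 72.0 ± 2.12 CPM (SD, n = 4) in amphetamine KO and 86.3 ± 9.51 CPM (n = 5) in saline KO mice, and 67.7 ± 4.08 CPM in amphetamine control and 75.1 ± 7.01 CPM in saline control mice. Its log2 fold change over both genotypes was -0.21, with an adjusted p of 0.119 by edgeR. Spg7, an inner membrane protease subunit, had 0.18, and Pmpca, a subunit of the presequence peptidase, had 0.11, with adjusted p of 0.154 and 0.240 by edgeR. Clpx, the unfoldase partner of Clpp, had -0.02 ± 0.0996 in KO mice and -0.02 ± 0.0940 in control mice.

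Of 21 genes of the mitochondrial and integrated stress response, 19 could be tested, and 15 of them were below 0 in amphetamine KO against saline KO mice, with a median of -0.09, where 51.1% of all genes were below 0. In control mice 11 were below 0, with a median of -0.02, where 51.6% of all genes were below 0. None passed the test by edgeR in any contrast; at an unadjusted p under 0.05, 1 was lower in amphetamine KO against saline KO mice, where 6% of all genes were. Over both genotypes DESeq2 called 1 of the 19, Mthfd2, lower, where it called 1.15% of all genes lower. Mthfd2, a mitochondrial folate enzyme, averaged 8.86 ± 0.917 CPM (SD, n = 4) in amphetamine KO, 11.8 ± 1.84 CPM (n = 5) in saline KO, 8.10 ± 0.790 CPM (n = 5) in amphetamine control and 9.28 ± 1.34 CPM (n = 5) in saline control mice. Its log2 fold change over both genotypes was -0.31, with an adjusted p of 0.129 by edgeR, or 0.0369 by edgeR without saline control library 5. Without that library edgeR called 269 genes, 153 of them lower. Atf4, the transcription factor at the centre of the integrated stress response, had -0.15 and its target Ddit4 -0.31, with adjusted p of 0.239 and 0.279 by edgeR. Fgf21 and Gdf15 were not matched by name to the counts, so their expression was not analysed here. The promoter search described further on went by list name and included Fgf21.

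Genes that report on the amount of mitochondria, among them the tricarboxylic acid cycle and the outer membrane channels, gave small values. Of 18, 15 were below 0 in amphetamine KO against saline KO mice (median -0.08) and 10 in amphetamine control against saline control mice (median -0.02), where 51.1% and 51.6% of all genes were. None passed the test by edgeR or DESeq2 in any contrast, and at an unadjusted p under 0.05 by edgeR 1 was lower in amphetamine KO against saline KO mice, where 6% of all genes were. Over both genotypes the log2 fold changes were -0.08 for Sdha, a respiratory complex subunit, -0.08 for Idh3a, a tricarboxylic acid cycle enzyme, and -0.09 for Vdac2, an outer membrane channel, with adjusted p from 0.443 to 0.505 by edgeR. Cs, citrate synthase, had 0.01 ± 0.0645 in KO mice.

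Of the 5 lists, genes passed the test by edgeR in that of the cytosolic heat shock genes. All 19 were below 0 in amphetamine KO against saline KO mice, with a median of -0.34, and 16 of 19 in amphetamine control against saline control mice, with a median of -0.12, where 51.1% and 51.6% of all genes were below 0. Over both genotypes 4 of 19 fell by edgeR, on a background of 0.0976% of all genes called lower. Hspa8, the constitutive cytosolic heat shock protein 70, averaged 1317 ± 51.6 CPM (SD, n = 4) in amphetamine KO and 1690.0 ± 39.3 CPM (n = 5) in saline KO mice, and 1294 ± 44.2 CPM in amphetamine control and 1535 ± 59.8 CPM in saline control mice. Its log2 fold change was -0.30 ± 0.0428, with an adjusted p of 0.0069 by edgeR. Stip1, which links the cytosolic chaperones of families 70 and 90, fell by 0.33 on the log2 scale (adjusted p = 0.0267 by edgeR). Ahsa1, an activator of Hsp90, fell by 0.26 (adjusted p = 0.0269 by edgeR), and Dnajb1, a co-chaperone of Hsp70, fell by 0.26 (adjusted p = 0.0443 by edgeR). The calls of Ahsa1 and Dnajb1 were lost without a filter on low counts (adjusted p = 0.0545 and 0.0655 by edgeR), and DESeq2 called 11 of the 19, where it called 1.15% of all genes lower. When 1 library was left out, edgeR called between 1 of the 19 (without amphetamine KO 4, saline KO 4, amphetamine control 3 or 5, or saline control 3) and 7 (without saline control 5), and Hspa8 was called each time, with adjusted p from 0.0015 to 0.036. In saline KO against saline control mice, with the same saline KO libraries, all 19 were above 0, with a median of 0.14, and none passed the test by edgeR, where 4 of the 19 and 3.79% of all genes were higher at an unadjusted p under 0.05.

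**Figure D3:**
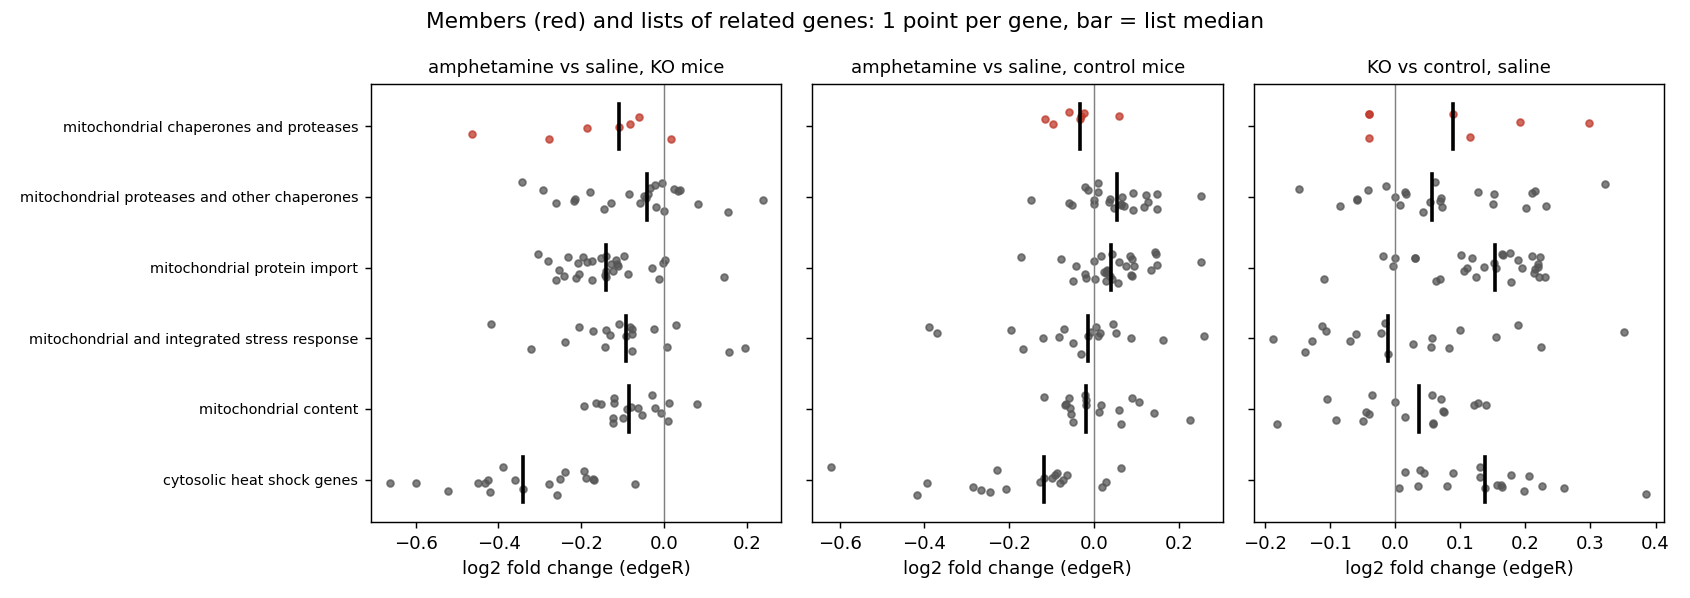
Log2 fold change (horizontal axes, edgeR) of the 7 genes in red and of the genes of 5 related lists in grey, 1 point per gene, with the list median as a bar, for amphetamine against saline in KO mice, the same in control mice, and KO against control under saline. All 19 cytosolic heat shock genes lie below 0 in the first panel and above 0 in the last, and the medians of the 7 genes are -0.11, -0.03 and 0.09.

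The 3-unit motif of the Hspe1 window and of 1 Hspd1 window was also searched for in the related lists. Counted by gene, 179 of 27025 genes (0.662%) had the 3-unit motif of GAA and TTC in a promoter window. In the cytosolic heat shock list it was found in 2 of the 14 genes with a window, Hsph1 and Chordc1, which had log2 fold changes of -0.60 ± 0.131 and -0.45 ± 0.177 in amphetamine KO against saline KO mice, with adjusted p of 0.151 and 0.338 by edgeR. In the import list it was found in 1 of 28 genes, Timm9, which had 0.00 ± 0.0842 in the same comparison. It was found in none of the 19 protease and chaperone genes, the 20 stress response genes or the 15 mitochondrial content genes with a window. Hsph1 and Chordc1 were named for this motif after their values had been seen. Hspa8, Stip1, Ahsa1 and Dnajb1, the heat shock genes called over both genotypes by edgeR, were not among the genes with the motif. Not every gene of the cytosolic heat shock list had a window. Which of these called genes had one is not given here, so their promoters cannot be said to lack the motif. The part of the motif in these values was not tested.

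Across the 19 libraries the chaperonin pair varied together. The correlation of log2 CPM between Hspd1 and Hspe1 was 0.76 by Pearson and 0.76 by Spearman, 0.55 after group means were removed, and 0.68 without saline KO library 3. Hspe1 ranked 135 among 21512 genes by its Pearson correlation with Hspd1. The other high Pearson values rested largely on a single library. Hspe1 and Clpp had a Pearson value of 0.80, or 0.40 without saline KO library 3, and a Spearman value of 0.37. Clpp and Grpel1 had 0.80, or 0.30 without that library, and 0.43 by Spearman. Hspe1 and Grpel1 had 0.71, or 0.17 without it, and 0.18 by Spearman. Hspa9 and Trap1 had -0.43 by Pearson and -0.12 by Spearman, and Trap1 and Lonp1 had 0.50 and 0.35. After group means were removed, several pairs exceeded the chaperonin pair in size. Clpp and Grpel1 had 0.80, Hspe1 and Clpp 0.79, Hspe1 and Grpel1 0.73, Hspa9 and Trap1 -0.72, and Trap1 and Lonp1 0.63. Saline KO library 3 lay apart from its group for Hspe1, Clpp and Grpel1. The same held for saline control library 5 with Hspa9, Trap1 and Lonp1. The within-group values were not computed without these libraries. Lonp1 and Clpp had -0.63 by Spearman and -0.11 after group means were removed. These values describe points that share a library and its scaling, and no test was made on them.

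**Figure D4:**
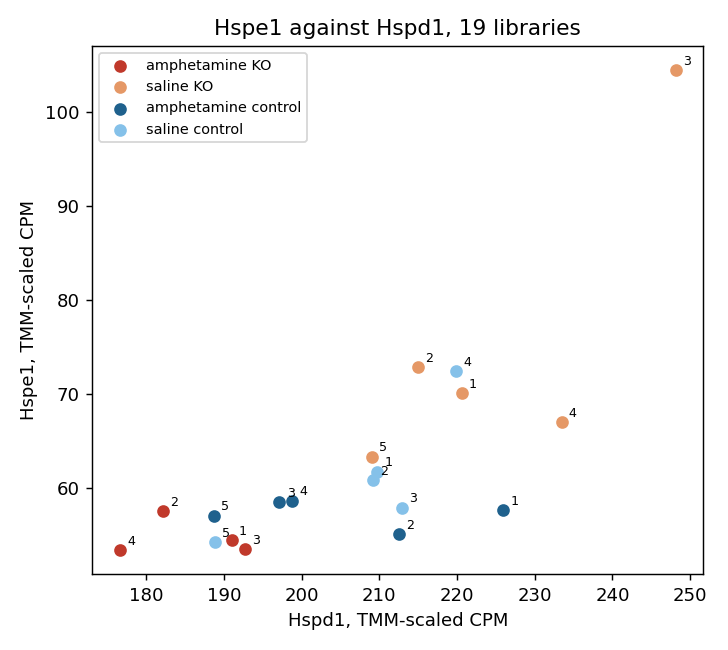
TMM-scaled CPM of Hspe1 (vertical axis) against Hspd1 (horizontal axis) in the 19 libraries, coloured by group and numbered by mouse; neither axis starts at 0. The 4 amphetamine KO libraries lie at the lower left, at 177 to 193 CPM of Hspd1 and 53.4 to 57.6 CPM of Hspe1, and saline KO library 3 lies alone at the upper right.

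A score made of the mean standardised log2 CPM of the 7 genes was used to name the genes with the most similar pattern over the 19 libraries. The 5 with the highest Pearson correlation were Zfp428 (0.95), Fahd1 (0.93), Myg1 (0.92), Cisd1 (0.91) and Ppp4c (0.91). Their Spearman correlations were 0.88, 0.80, 0.83, 0.85 and 0.84 in the same order. Without saline KO library 3 the Pearson values were 0.74, 0.83, 0.78, 0.67 and 0.68. Ranked by Spearman instead, Zfp428 and Cisd1 were again among the 5, beside Cmpk2, Elp6 and Wdr41. Ranked by Pearson without saline KO library 3, only Fahd1 of the first 5 was again among the 5, beside Fkbp4, Ddx23, Gm11638 and Leo1.

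**Figure D5:**
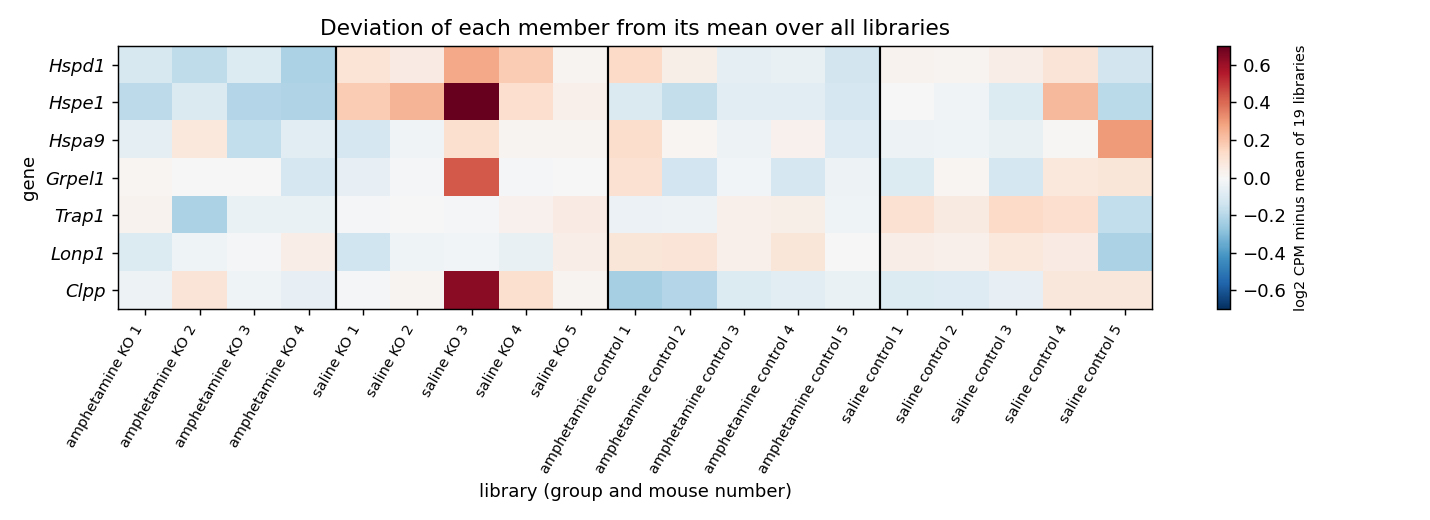
Log2 CPM of each of the 7 genes (rows) minus its mean over 19 libraries, in each library (columns, by group and mouse number), from blue (below the mean) to red (above it). Saline KO library 3 is the darkest red for Hspe1, Clpp and Grpel1, and saline control library 5 is red for Hspa9 and blue for Trap1 and Lonp1.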

How the data were processed

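RNA of the striatum of 19 mice was sequenced, 1 library per mouse. The deposited files hold whole-number counts per gene, and the submitters' processing notes list, without settings, STAR 2.6.0c, HTSeq 0.6.1p2, Trim Galore 0.5.0, FastQC 0.11.5, R 3.6.1, DESeq2 1.26.0s and the build GRCm39. Neither the annotation release nor the use of strand in counting is stated. The authors also deposited 3 comparison tables with log2 fold changes, p-values and a mean normalized count (a signal scaled by size factors), per the file headers, and with FPKM values, whose gene length is not given. Gene names and coordinates came from these tables. FPKM values served only to compare genes per length.

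Counts were fitted in R 4.3.3 with edgeR 4.0.16 (filterByExpr, TMM, robust quasi-likelihood) as 4 group means over all 19 libraries. P-values were adjusted by Benjamini-Hochberg over 21513 genes within each of 6 contrasts, with a call at an adjusted p under 0.05. The standard error is the log2 fold change over the root of F. Levels are TMM-scaled CPM, and log2 CPM used a prior count of 2. Alternatives were DESeq2 1.42.0, limma voom (limma 3.58.1), DESeq2 size factors, no filter, only the groups compared, a replicate block, non-robust settings, each library left out, and 4 libraries left out that earlier results had shown to stand apart. The procedure was also run on simulated data, and no outcome of that run is given here. No library was a copy of another: chi-square per degree of freedom was at least 10.6 for each pair of libraries. The labels name separate mice.

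The 7 genes and all lists were chosen with earlier results of these data known. In each list of related genes, the text names every gene called in any contrast, or otherwise the 3 with the smallest p for amphetamine over both genotypes; Clpx, Cs, Hsph1, Chordc1 and Timm9 were added after their values had been seen. The 9 marker lists covered striatal, cortical and hypothalamic neurons, ependyma, choroid plexus, astrocytes, oligodendrocytes, microglia and blood. Promoter sequences are from RefSeq (GRCm38.p6).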

Additional observations from a re-analysis of the deposited data

Results flagged for a closer look

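Dixon's criterion, which finds 1 library apart from the rest of its group, is met by chance in about 1 in 20 single sets. The 28 sets of group values here are 7 genes in the same libraries and are not independent. This rate therefore cannot measure an excess. In 7 of the 28 sets, 1 library lay apart by this criterion. Saline KO library 3 accounted for 3 of them: 104.5 CPM of Hspe1, where the next highest saline KO library had 72.9 CPM, 68.2 CPM of Clpp, with 47.5 CPM next, and 57.1 CPM of Grpel1, with 42.3 CPM next. Saline control library 5 accounted for another 3, with 317 CPM of Hspa9 (next highest 259 CPM), 57.0 CPM of Trap1 (next lowest 67.2 CPM) and 68.5 CPM of Lonp1 (next lowest 81.9 CPM). Amphetamine KO library 4 was low for Grpel1, with 39.0 CPM and 42.3 CPM next.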

How the results depend on the processing

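None of the 7 genes was called by edgeR in any of the 6 contrasts with DESeq2 size factors, without a filter, without robust settings, with the 2 groups alone (fitted for the 4 contrasts of 2 groups), with a replicate block or with any 1 library left out, nor by limma voom. DESeq2 called Hspd1 and Hspe1 in KO mice (adjusted p = 0.0265 and 0.0301) and Hspe1 over both genotypes (0.0391), and edgeR without the 4 libraries that stand apart called the last (0.0181). Directions turned for values near 0. With the replicate number as a block, Lonp1 in KO mice was -0.00103. Without the 4 libraries, Hspa9 in control mice was 0.0329, Grpel1 in KO against control after amphetamine -0.0156, and the interactions of Trap1, Lonp1 and Clpp 0.0847, 0.0166 and 0.0118. Leaving out 1 library gave ranges that cross 0: -0.00633 to 0.0430 for Lonp1 in KO mice, -0.0581 to 0.0331 for Hspa9 in control mice, -0.0740 to 0.0256 for Hspa9 and -0.0179 to 0.115 for Grpel1 in KO against control after saline, -0.0130 to 0.0514 for Grpel1 after amphetamine, and for the interaction -0.0921 to 0.00759 for Hspa9, -0.0576 to 0.0353 for Trap1, -0.0580 to 0.0166 for Lonp1, -0.104 to 0.0787 for Clpp and -0.101 to 0.0324 for Grpel1. Counts over all genes moved more. For amphetamine in KO mice edgeR called 1 gene, DESeq2 99, limma voom 3, the 2 groups alone 0, the block 5, the 4 libraries left out 3, and 1 library left out 0 to 3. For amphetamine in control mice the counts were 1 by edgeR, 198 by DESeq2, 75 in the 2 groups alone, 183 without the 4 libraries and 0 to 4 without 1 library. For both genotypes they were 32 by edgeR, 435 by DESeq2, 18 with the block, 751 without the 4 libraries and 3 to 269 without 1 library, lowest without amphetamine control 3 or 5 or amphetamine KO 4 and highest without saline control 5. For KO against control, DESeq2 called 2 genes after saline and 106 after amphetamine, where edgeR called 0, or 1 after amphetamine without the 4 libraries; for the interaction DESeq2 called 15 and edgeR 0. The cause of these shifts was not tested. Mice with the same number in their titles had correlations of -0.221 to 0.154, which gave no sign that the title numbers pair the samples. Such values of single pairs cannot exclude a batch shared by number. In the amphetamine KO group the title numbers differ from those of the submitters' descriptions, which skip a number. The correlations and the block used the title numbers, so a pairing of KO mice by description number was not checked. The block called none of the 7 genes. At a lowest count of 2124, counting error was small for the 7 genes.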
